A study of Mus musculus with 31 samples.

Results

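The Schlafen genes were followed through 9 sorted populations of mouse bone marrow, from long-term stem cells to granulocytes. The members are Slfn1, Slfn2, Slfn3, Slfn4, Slfn5, Slfn8 and Slfn9, taken by symbol from the annotation of probes that name a single gene. They make up 7 of the 19938 genes measured, and each was read by exactly 1 probe. All cells came from wild-type C57BL/6 mice with no treatment named, and the ages of the animals are not given in the sources used here. Lineage-negative cKit+ Sca1+ cells were divided into long-term stem cells (LT-HSC, Flk2- CD48- CD150+, 4 samples), short-term stem cells (ST-HSC, Flk2- CD48- CD150-, 3 samples) and multipotent progenitors of the types MPP2 (Flk2- CD48+ CD150+, 3 samples), MPP3 (Flk2- CD48+ CD150-, 3 samples) and MPP4 (Flk2+, 5 samples). Lineage-negative cKit+ cells with CD34 gave common myeloid progenitors (CMP, FcγR-, 3 samples) and granulocyte-macrophage progenitors (GMP, FcγR+, 4 samples). Mac1+ cells gave pre-granulocytes (PreGr, Gr1 intermediate, 3 samples) and granulocytes (Gr, Gr1 high, 3 samples). Each sample held 20000 cells sorted in 2 rounds, and its RNA was amplified before it was hybridised to a 1-colour Affymetrix array. The HSC and GMP samples were shared, as controls, with another study of the submitters.

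Schlafen proteins share a core that binds nucleic acid, and several members cut or protect transfer RNA. The mouse genes fall into a short class (Slfn1, Slfn2), an intermediate class (Slfn3, Slfn4) and a long class (Slfn5, Slfn8, Slfn9) that carries an additional helicase-like part. The founding members were found in developing T cells and are known for restraining growth, and Slfn2 is known for keeping T cells and monocytes quiescent. Many members are induced by type I interferon, which signals through its receptor and the kinases Jak1 and Tyk2.

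The 31 arrays were deposited on 5 scales, each shared by a set of arrays, with array medians between 6.185 and 7.834 on the log2 scale. Every level below is therefore a log2 value after quantile normalization over all arrays, and a difference of 1 is a doubling. Changes were taken from a limma fit with the array set as a block, and a gene is said to rise or fall only where the fit without the block also called it, in the same direction, at an adjusted p under 0.05. GMP 1 to 3 and all PreGr and Gr arrays form 1 set, which is tied to the other sets through GMP 4 alone. LT-HSC 1 to 3 are alone in theirs, so that set-adjusted changes from LT-HSC rest on LT-HSC 4, and ST-HSC and MPP2 are tied to other sets through MPP3 arrays. The sorted markers followed the gates: Ly6g, the Gr1 antigen of neutrophils, had a mean level of 5.33 in GMP, 11.27 in PreGr and 12.82 in Gr, and Slamf1, which encodes CD150, had means of 8.71 in LT-HSC against 5.05 for ST-HSC. Flt3, which encodes Flk2, stood at 11.27 in the Flk2+ MPP4 but also at 9.96 in the Flk2- ST-HSC. In bulk samples, fewer cells that express a gene and less RNA per cell cannot be told apart.

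All 7 Schlafen genes differed among the 9 populations in both fits, a call made for 44.3% of all genes. By the strength of that difference Slfn1 ranked 3 of 19938 genes, Slfn2 22 and Slfn4 71, ahead of Slfn8 at 422, Slfn5 at 585, Slfn9 at 1932 and Slfn3 at 5773. The members followed different courses. By population mean, Slfn1, Slfn2 and Slfn4 were high in PreGr and highest in Gr, Slfn5 was highest in PreGr, Slfn8 was lowest in GMP, and Slfn9 was lowest in Gr. The difference of Slfn5 between PreGr and ST-HSC, the next highest mean, was not called, nor was that of Slfn8 between GMP and CMP. Slfn3 stayed within about 1 log2 unit throughout.

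**Figure D1:**
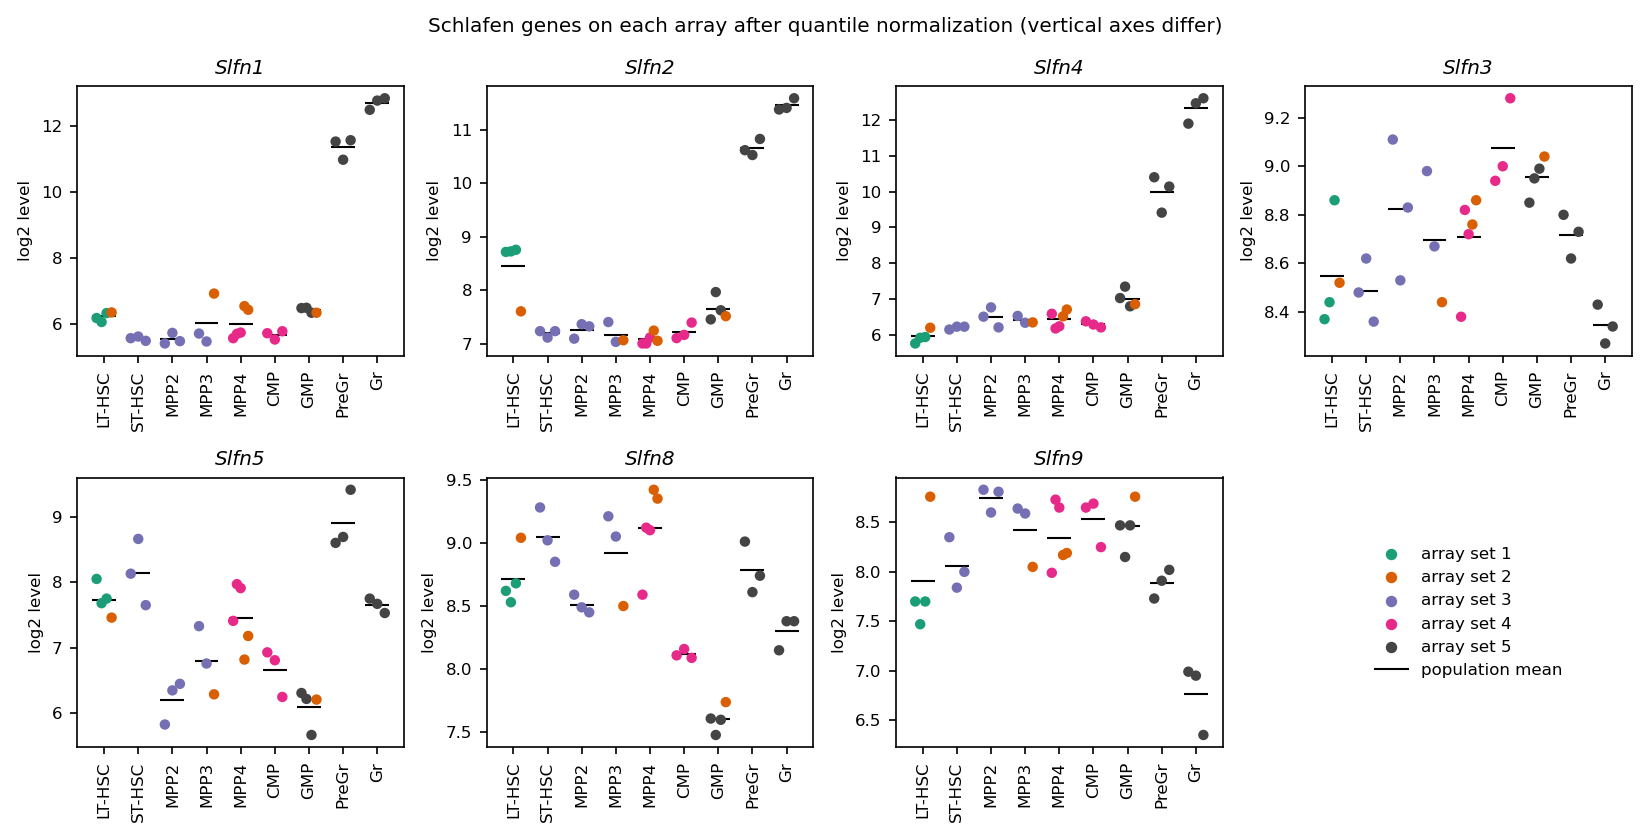
Log2 level after quantile normalization (vertical axis) of each Schlafen gene on each of the 31 arrays, by population. Points are arrays coloured by array set and lines are population means. Slfn1, Slfn2 and Slfn4 on the PreGr and Gr arrays sit above all 25 stem and progenitor arrays, while Slfn9 on the Gr arrays, between 6.35 and 6.99, sits below all others.

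The 250 bases before a transcript start of Slfn1, Slfn2 and Slfn4, the genes highest in Gr, and of their neighbour Slfn3 are shown because a stretch of 9 letters, marked in capitals, occurs in all 4. It does not occur in the windows of Slfn5 and Slfn8, which also rose from GMP to PreGr. The sequences are those of RefSeq on GRCm38.p6, plus strand, 5′ to 3′.
Slfn1, chr11:83116570-83116819: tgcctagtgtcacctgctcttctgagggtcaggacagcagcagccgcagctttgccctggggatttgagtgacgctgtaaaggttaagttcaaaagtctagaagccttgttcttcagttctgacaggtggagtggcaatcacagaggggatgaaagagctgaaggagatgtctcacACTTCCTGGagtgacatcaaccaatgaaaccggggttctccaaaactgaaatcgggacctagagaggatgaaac
Slfn2, chr11:83064862-83065111: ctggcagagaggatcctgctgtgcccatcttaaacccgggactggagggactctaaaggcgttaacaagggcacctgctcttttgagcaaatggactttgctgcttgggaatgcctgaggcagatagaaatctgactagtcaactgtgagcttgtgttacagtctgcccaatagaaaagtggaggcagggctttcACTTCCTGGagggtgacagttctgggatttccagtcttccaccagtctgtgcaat
Slfn4, chr11:83174936-83175185: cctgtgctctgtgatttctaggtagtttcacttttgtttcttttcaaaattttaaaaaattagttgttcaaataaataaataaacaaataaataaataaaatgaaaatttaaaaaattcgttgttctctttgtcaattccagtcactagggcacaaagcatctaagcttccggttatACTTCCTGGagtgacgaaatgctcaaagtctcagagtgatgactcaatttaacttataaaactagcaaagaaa
Slfn3, chr11:83191080-83191329: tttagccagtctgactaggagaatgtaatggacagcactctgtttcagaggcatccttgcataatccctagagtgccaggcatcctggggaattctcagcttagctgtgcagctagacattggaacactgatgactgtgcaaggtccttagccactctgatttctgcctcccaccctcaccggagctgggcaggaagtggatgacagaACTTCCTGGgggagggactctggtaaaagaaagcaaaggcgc
The capitals spell ACTTCCTGG, which holds the core that Ets-family factors read, and begin 74 bases before the start in Slfn1, 55 in Slfn2, 73 in Slfn4 and 42 in Slfn3. This stretch was picked after the promoters had been read, and it was found on either strand in 230 of 32851 windows of that length, a share of 0.7%. Over their whole length the windows shared 43.0% to 47.7% identical bases between pairs among these 4 genes. The other pairs of members, apart from Slfn8 with Slfn9, shared 42.5% to 49.1%. Other stretches were shared between some of these windows. The letters agtgac follow the capitals in both Slfn1 and Slfn4. The stretch cacctgctctt, longer than the capitals and further from the start, stands in both Slfn1 and Slfn2. The 4 genes are related members of the same cluster, so these are not taken as separate occurrences. A C/EBP site, spelled TTGCNNAA on either strand and overlapping none of the capitals, was present in Slfn2 and Slfn3 and in 9.56% of all windows. Both motifs were thus carried by Slfn2, which rose from GMP to PreGr, and by Slfn3, whose level on all 31 arrays lay between 8.27 and 9.28. The part of either motif in these levels was not tested.

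Slfn1 encodes a short Schlafen protein. Its level was 6.49, 6.50, 6.35 and 6.35 in the GMP samples, 11.53, 10.98 and 11.57 in PreGr and 12.49, 12.77 and 12.84 in Gr. The 25 stem and progenitor arrays lay between 5.42 and 6.93, with a median of 5.75, so neither granulocytic population overlapped any of them. Slfn1 rose 30.1-fold from GMP to PreGr (log2 change 4.91 ± 0.13 SE, adjusted p = 5.4e-18), which placed it at 7 of 19938 genes ordered by the size of the rise. It rose a further 2.53-fold from PreGr to Gr (1.34 ± 0.13, adjusted p = 6.96e-08). Before PreGr the gene lay near the bottom of the scale. The array has no detection call, but 95% of the values of 1027 olfactory receptor genes, which are not known for expression in marrow, were below 7.05, and Slfn1 passed that level on the 6 PreGr and Gr arrays only. The folds are thus differences of measured values from a level that could not be told apart from such probes. Among the earlier populations each neighbour in the order of Slfn1 levels, MPP2, ST-HSC, CMP, MPP4, MPP3, LT-HSC and GMP, overlapped the next and neither fit called a difference between them. Of pairs further apart in that order none was called in both fits. The fit without the block alone called GMP higher than ST-HSC (0.85), MPP2 (0.87) and CMP (0.73), and ST-HSC (-0.67) and MPP2 (-0.69) lower than LT-HSC, where the set-adjusted differences had the opposite sign.

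Slfn2 encodes the other short protein. It was measured at 7.46, 7.97, 7.63 and 7.52 in GMP, 10.62, 10.53 and 10.83 in PreGr and 11.38, 11.41 and 11.59 in Gr. The groups did not overlap, and Slfn2 rose 7.87-fold from GMP to PreGr (2.98 ± 0.12, adjusted p = 1.37e-14) and 1.74-fold from PreGr to Gr (0.80 ± 0.12, adjusted p = 2.18e-05). Before PreGr, the 3 LT-HSC arrays that form their own set stood at 8.72, 8.73 and 8.76, LT-HSC 4 at 7.61, and the ST-HSC, MPP and CMP arrays between 7.01 and 7.41. Without the set as a block, Slfn2 was lower in ST-HSC than in LT-HSC by 1.26 (adjusted p = 5.84e-05), whereas the set-adjusted difference was -0.57 ± 0.25 (adjusted p = 0.236). Because 3 of the 4 LT-HSC arrays share a set with no other population, stem cell and array set cannot be told apart in the larger difference. The smaller one rests on LT-HSC 4.

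Slfn4, of the intermediate class, is known to be induced in activated myeloid cells. Its levels were 7.02, 7.34, 6.79 and 6.85 in GMP, 10.40, 9.41 and 10.14 in PreGr and 11.90, 12.47 and 12.61 in Gr. Slfn4 rose 7.64-fold from GMP to PreGr (2.93 ± 0.20, adjusted p = 1.49e-10) and 5.07-fold from PreGr to Gr (2.34 ± 0.20, adjusted p = 1.12e-08). The latter step was the largest rise of the family there, and by size it ranked 46 of 19938 genes, against 206 for Slfn1 and 679 for Slfn2. From GMP to Gr, over both steps, the measured values differed by 5.28 ± 0.20 for Slfn4, 6.25 ± 0.13 for Slfn1 and 3.78 ± 0.12 for Slfn2. GMP lay below 7.05 on all 4 arrays for Slfn1 and on 3 of 4 for Slfn4, the level that 95% of olfactory receptor values did not reach, so these sizes cannot be set against that of Slfn2. Among stem cells and progenitors Slfn4 lay between 5.75 and 7.34, and it passed 7.05 on 7 of 31 arrays, the 6 granulocytic ones and GMP 2.

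The rise of these 3 genes did not depend on which earlier population served as the reference. Slfn1, Slfn2 and Slfn4 were called higher in PreGr and in Gr than in each of the 7 earlier populations, in both fits. These comparisons share the PreGr or Gr arrays, and in the set-adjusted fit all but those with GMP pass through GMP 4, so they are not separate evidence. The share of all genes called higher in PreGr was 5.14% against LT-HSC, 4.05% against ST-HSC, 3.84% against MPP2, 3.89% against MPP3, 4.45% against MPP4, 3.14% against CMP and 6.63% against GMP. In Gr the shares were, in the same order, 11.4%, 6.39%, 7.27%, 7.95%, 9.69%, 9.11% and 15.2%.

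From GMP to PreGr 5 of the 7 members rose and none fell, while 15.6% of all genes were called and 6.63% rose. The 5 were Slfn1, Slfn2, Slfn4, Slfn5 and Slfn8. Slfn9 (-0.47 ± 0.18, adjusted p = 0.0754) and Slfn3 (-0.21 ± 0.14, adjusted p = 0.39) were not called. The median change of the members was 2.84, against 0.01 over all genes. From PreGr to Gr the family divided. Slfn1, Slfn2 and Slfn4 rose, and Slfn5 and Slfn9 fell, which makes 5 of 7 called where 19.3% of all genes were called, 8.12% higher and 11.2% lower. Their median change there was -0.37, against 0.02 over all genes. Across both steps, Gr against GMP, all 7 were called, 5 higher and 2 lower, where 34.4% of genes were called, 15.2% of them higher and 19.2% lower as shares of all genes tested.

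Slfn3, of the intermediate class, lies beside Slfn4. It was measured at 8.85, 8.95, 8.99 and 9.04 in GMP, 8.80, 8.62 and 8.73 in PreGr and 8.43, 8.27 and 8.34 in Gr. The groups did not overlap, but the steps were small. Neither GMP to PreGr nor PreGr to Gr (-0.37 ± 0.14, adjusted p = 0.0615) was called, and Slfn3 was lower in Gr than in GMP by 1.5-fold (-0.58 ± 0.14, adjusted p = 0.002). Its highest mean was 9.08 in CMP. All 31 values lay above 7.05, between 8.27 and 9.28, so the flat course was not that of a probe at the bottom of the scale. CMP was called higher than ST-HSC (1.15 ± 0.31, adjusted p = 0.0321), where 3.04% of genes were called. That call was lost on leaving out any one of 5 arrays, with an adjusted p of 0.117 without MPP3 1.

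The starts of Slfn8 and Slfn9 are shown with that of Slfn5 because all 3 long genes hold an interferon response element core, marked in capitals. It is the unit GAAA, any 2 bases and GAAA again, searched on both strands, and it overlaps no other motif searched. Slfn5 is on the plus strand, Slfn8 and Slfn9 are on the minus strand, and each sequence is written 5′ to 3′ along its gene.
Slfn5, chr11:82951852-82952101, plus strand: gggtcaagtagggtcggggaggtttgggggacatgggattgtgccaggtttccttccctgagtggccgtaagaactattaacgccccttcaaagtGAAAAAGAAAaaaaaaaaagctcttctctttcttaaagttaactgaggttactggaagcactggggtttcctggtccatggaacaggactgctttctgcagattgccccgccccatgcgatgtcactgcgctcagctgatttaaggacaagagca
Slfn8, chr11:83020811-83021060, minus strand: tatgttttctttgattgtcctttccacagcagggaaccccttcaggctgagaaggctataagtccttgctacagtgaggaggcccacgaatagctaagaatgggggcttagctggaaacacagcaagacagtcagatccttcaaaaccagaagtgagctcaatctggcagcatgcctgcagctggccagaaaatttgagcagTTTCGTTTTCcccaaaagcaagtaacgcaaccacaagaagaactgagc
Slfn9, chr11:82991831-82992080, minus strand: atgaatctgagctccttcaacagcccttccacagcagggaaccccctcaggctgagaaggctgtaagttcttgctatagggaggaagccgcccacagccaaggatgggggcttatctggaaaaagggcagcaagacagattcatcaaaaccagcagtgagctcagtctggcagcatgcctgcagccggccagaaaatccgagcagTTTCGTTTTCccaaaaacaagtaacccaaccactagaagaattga
The core was present in 2.98% of the 32851 windows and in no window of Slfn1, Slfn2, Slfn3 or Slfn4. In Slfn8 and Slfn9 it reads TTTCGTTTTC, the core on the opposite strand, and lies in windows that share 80.0% of their bases, so these are not separate occurrences. A gamma-activated site, TTCNNNGAA on either strand, was in none of the 7 windows shown and in 7.02% of all windows.

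Slfn5, a long member, is known as an interferon-induced nuclear protein. Its levels were 6.31, 6.22, 5.67 and 6.21 in GMP, 8.60, 8.69 and 9.41 in PreGr and 7.75, 7.67 and 7.53 in Gr. PreGr stood above both neighbours with no overlap. Slfn5 rose 7.14-fold from GMP to PreGr (2.84 ± 0.26, adjusted p = 1.89e-08) and fell 2.38-fold from PreGr to Gr (-1.25 ± 0.26, adjusted p = 0.000679). Gr remained 2.99-fold above GMP (1.58 ± 0.26, adjusted p = 2.08e-05). All 4 GMP values lay below 7.05, within the range of the olfactory receptor probes, so the folds against GMP are differences of measured values and not of RNA levels.

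Slfn5 also varied before the granulocytic stages. It was measured at 8.05, 7.68, 7.75 and 7.46 in LT-HSC, 8.13, 8.66 and 7.65 in ST-HSC, 5.83, 6.35 and 6.45 in MPP2, 7.33, 6.76 and 6.29 in MPP3, 7.41, 7.97, 7.91, 6.82 and 7.18 in MPP4 and 6.93, 6.81 and 6.25 in CMP. Stem cells and MPP4 were high, and every array of MPP2, CMP and GMP lay below 7.05, where the folds below are again those of measured values. MPP2 was lower than ST-HSC, which lies in the same array set, by 3.83-fold (-1.94 ± 0.26, adjusted p = 1.61e-05), where 6.58% of genes were called. That call held without each array in turn, with adjusted p up to 0.000211. MPP2 was also lower than LT-HSC (-2.01 ± 0.53, adjusted p = 0.0248), the only member called of 7 where 4.45% of genes were, but not without MPP3 1 (adjusted p = 0.0835). MPP3 was called lower than ST-HSC (-1.10 ± 0.29, adjusted p = 0.0355, 2.35% of genes called) and CMP lower than LT-HSC (-1.56 ± 0.47, adjusted p = 0.0493, 3.44% of genes called). Neither call was stable: leaving out 1 of 5 arrays ended the former, with an adjusted p of 0.407 without MPP3 2, and leaving out 1 of 20 ended the latter, with 0.164 without MPP4 4. CMP minus MPP4 was -1.10 ± 0.26 with the set as a block (adjusted p = 0.0103) and -0.80 ± 0.26 without it (adjusted p = 0.0763), so it is not counted as a change. Within the set that holds MPP4 1 to 3 and CMP the groups did not overlap.

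Slfn8 is a long member known from lymphocyte development. Its levels were 8.62, 8.53, 8.68 and 9.04 in LT-HSC, 9.28, 9.02 and 8.85 in ST-HSC, 8.59, 8.49 and 8.45 in MPP2, 9.21, 9.05 and 8.50 in MPP3 and 8.59, 9.12, 9.10, 9.42 and 9.35 in MPP4. It then stood at 8.11, 8.16 and 8.09 in CMP, 7.61, 7.48, 7.60 and 7.74 in GMP, 9.01, 8.61 and 8.74 in PreGr and 8.15, 8.38 and 8.38 in Gr. GMP was lower than every other population on every array. CMP was lower than MPP4 by 1.76-fold (-0.81 ± 0.13, adjusted p = 0.000271), the 1 member called there, where 4.03% of genes were called. GMP was lower than MPP4 by 3.13-fold (-1.65 ± 0.19, adjusted p = 3.23e-06, 4.97% of genes called) and lower than LT-HSC by 2.46-fold (-1.30 ± 0.22, adjusted p = 0.000398, 6.65% called). The call of CMP against MPP4 held without each array in turn. The set-adjusted GMP minus LT-HSC is GMP 4 against LT-HSC 4 alone, so leaving out other arrays could not move its size. Without the block, which uses all arrays of both populations, it was -1.11. The set-adjusted GMP minus MPP4 rests on GMP 4 and could not be fitted without it, and its call held without each other array. GMP minus CMP was -0.83 ± 0.23 with the block (adjusted p = 0.0722) and -0.51 ± 0.17 without it (adjusted p = 0.0413). With 1.04% of genes called in both limma fits there, no member was, Slfn8 being the 1 of 7 with an unadjusted p under 0.05 in the fit with the block. From GMP to PreGr Slfn8 rose 2.33-fold (1.22 ± 0.13, adjusted p = 1.26e-07). PreGr to Gr was -0.49 ± 0.13 (adjusted p = 0.00493) with the block and missed the threshold without it (adjusted p = 0.0526), and Gr stayed 1.66-fold above GMP (0.73 ± 0.13, adjusted p = 3.68e-05).

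MPP2 was lower in Slfn8 than MPP4 by 2.84-fold with the set as a block (-1.51 ± 0.23, adjusted p = 0.001) and by 1.52-fold without it (-0.61 ± 0.16, adjusted p = 0.0102). It was the 1 member called of 7 where 0.998% of genes were. These populations share no set, and the larger value passes through MPP3 3. The difference between MPP2 and LT-HSC was called with the block only (-1.16 ± 0.26, adjusted p = 0.0114, against -0.21 ± 0.17 and 0.345 without it). Likewise MPP2 minus MPP3 (-0.62, adjusted p = 0.0282) and MPP3 minus MPP4 (-0.89, adjusted p = 0.0184) were called with the block alone. Of MPP2 against MPP3 and MPP3 against MPP4, no member was called in both fits, where 0.662% and 0.281% of genes were, and 2 of 7 had an unadjusted p under 0.05 in each. ST-HSC, MPP3 and MPP4 against LT-HSC gave no member called in both fits either, with 0.537%, 4.02% and 1.99% of genes called. At an unadjusted p under 0.05 in the set-adjusted fit the members were 3, 5 and 2 of 7 in these 3 comparisons, and the fit without the block alone called 2, 2 and 3, where it called 22.8%, 27.5% and 24.7% of all genes. The share of all genes at the unadjusted threshold is not given here, so counts at that threshold stand without a background.

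**Figure D2:**
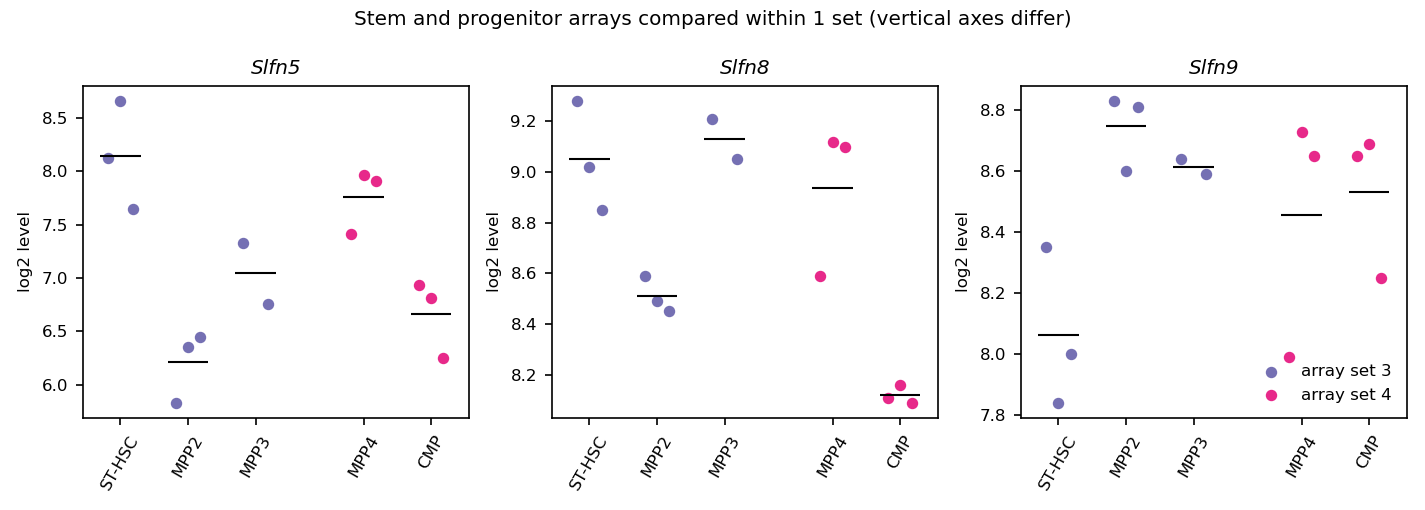
Log2 level after quantile normalization (vertical axes, which differ) of Slfn5, Slfn8 and Slfn9 on the arrays of sets 3 and 4. Set 3 holds ST-HSC, MPP2 and MPP3 1 and 2, and set 4 holds MPP4 1 to 3 and CMP. Set 2, with LT-HSC 4, MPP3 3, MPP4 4 and 5 and GMP 4, is not drawn. Points are arrays and lines are means within the set. MPP2 lies below ST-HSC in Slfn5 (5.83 to 6.45 against 7.65 to 8.66) and above it in Slfn9, and CMP lies below MPP4 in Slfn8. The Slfn9 difference was called by limma with the set as a block only (adjusted p = 0.0158, against 0.117 without it).

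Slfn9, the long member beside Slfn8, was lower in Gr than in GMP, where Slfn8 was higher. It was measured at 8.47, 8.15, 8.47 and 8.76 in GMP, 7.73, 7.91 and 8.02 in PreGr and 6.99, 6.95 and 6.35 in Gr. The groups did not overlap at either step, but the change from GMP to PreGr was not called. Slfn9 fell 2.18-fold from PreGr to Gr (-1.13 ± 0.18, adjusted p = 4.69e-05), and Gr was 3.03-fold below GMP (-1.60 ± 0.18, adjusted p = 1.2e-07). All 3 Gr values lay below 7.05, so how far the gene fell there is not resolved beyond the measured difference. Gr was below LT-HSC as well (-1.60 ± 0.36, adjusted p = 0.00224, and -1.145 without the block), where 22.7% of genes were called. With the block this value passes through GMP 4 and LT-HSC 4, so it is not separate evidence from the change against GMP. Among the earlier populations Slfn9 was highest in MPP2 at 8.83, 8.60 and 8.81. LT-HSC 1 to 3 stood at 7.70, 7.47 and 7.70 and LT-HSC 4 at 8.76. MPP2 minus LT-HSC was therefore -0.58 ± 0.37 with the block (adjusted p = 0.325) and 0.84 ± 0.24 without it (adjusted p = 0.00702), opposite in sign, and no direction is given.

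The probe sequences were not used here, so it was not tested whether probes of near-identical members, such as Slfn8 and Slfn9, read each other's RNA. From GMP to PreGr the change was 1.22 ± 0.13 for Slfn8, which was called, and -0.47 ± 0.18 for Slfn9, which was not. From PreGr to Gr the changes were -0.49 for Slfn8 and -1.13 for Slfn9, and only that of Slfn9 was called in both fits.

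Along chromosome 11, RefSeq orders the cluster as Slfn5, Slfn9, Slfn8, the pseudogene Slfn10-ps, Slfn2, Slfn1, Slfn4, Slfn3 and Slfn14, with the noncoding transcript Slfn5os overlapping Slfn5. Slfn14 has no single-gene probe name here and is not analysed here. Slfn10-ps (0.43 ± 0.14 from GMP to PreGr, adjusted p = 0.0269, and 0.0686 without the block) and Slfn5os (0.07 ± 0.12, adjusted p = 0.776) were not called in both fits at either granulocytic step, nor was Slfnl1, a Schlafen-like gene on another chromosome (0.02 ± 0.10, adjusted p = 0.951). Among 9 protein-coding genes that flank the cluster, Rffl, a ubiquitin ligase, rose by 0.31 ± 0.10 from GMP to PreGr (adjusted p = 0.0386) and by 0.51 ± 0.10 from PreGr to Gr (adjusted p = 0.000545), and 1700020L24Rik fell by 0.53 at the latter step (adjusted p = 0.00129). Rad51d, Fndc8, Nle1, Unc45b, Ap2b1, Rasl10b and Gas2l2 were not called at either step. The rises of Slfn1, Slfn2, Slfn4 and Slfn5 from GMP to PreGr, each over 2.8 on the log2 scale, thus had no counterpart of that size among the flanking genes measured, and within the cluster Slfn9 (-0.47) and Slfn3 (-0.21) had changes of the opposite sign that were not called.

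**Figure D3:**
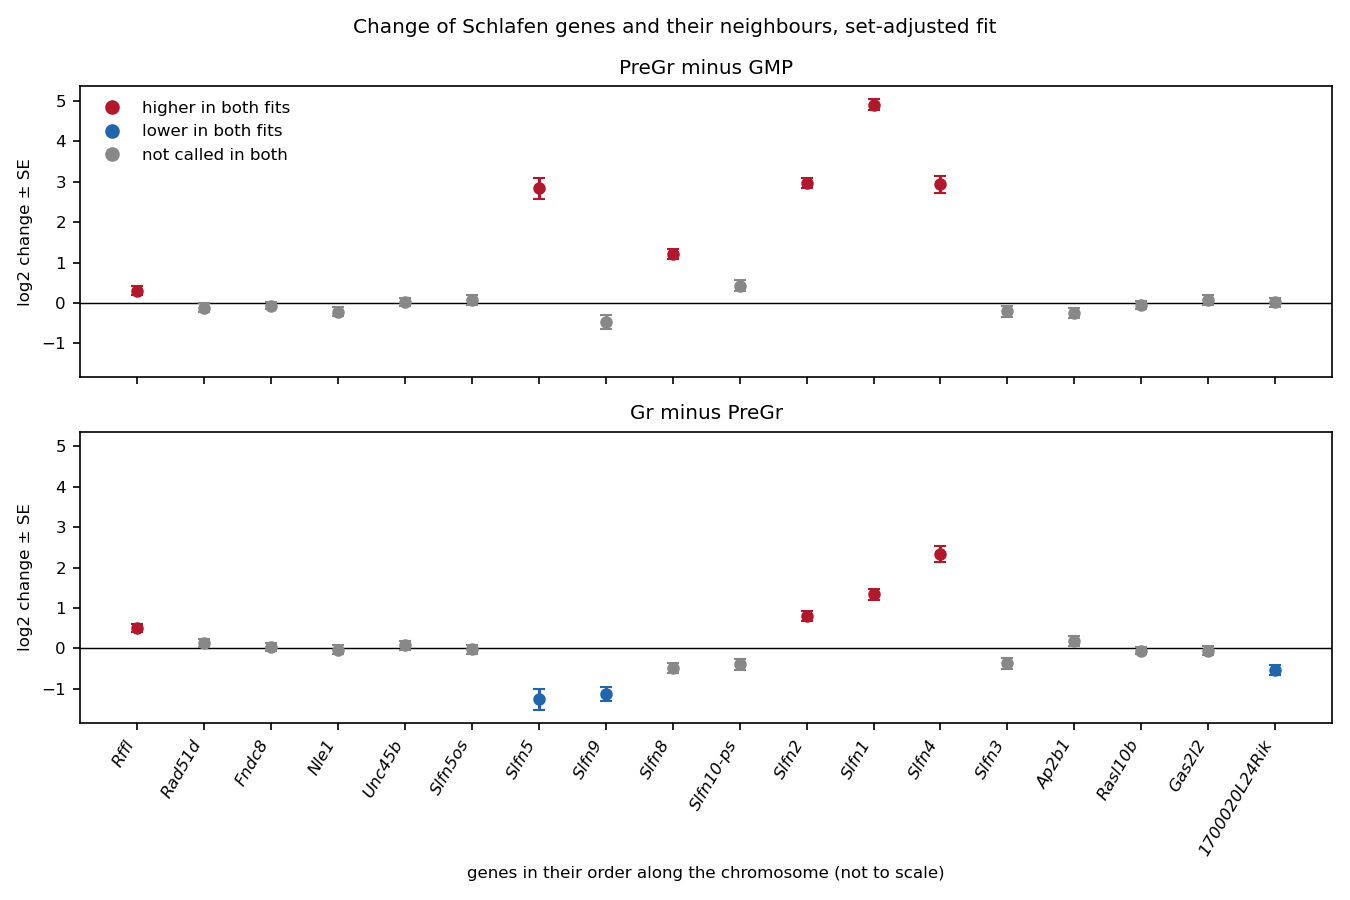
Set-adjusted log2 change with its SE (vertical axis) from GMP to PreGr (upper panel) and from PreGr to Gr (lower panel) for Schlafen genes and the measured genes that flank them, in RefSeq order along the chromosome and not to scale. Red and blue points were called higher and lower in both fits, and grey points were not. Slfn1, at 4.91, is the highest point of the upper panel, and Slfn5 and Slfn9 lie below 0 in the lower one.

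Genes of the interferon response were given beside the family, since several Schlafen genes belong to that response. Of 32 listed genes 29 were measured. From GMP to PreGr 16 rose and none fell, where 6.63% of all genes rose and 8.98% fell, with a median change of 0.62 against 0.01 over all genes. Among them were Ifi27l2a, a small interferon-inducible protein (3.46 ± 0.23), Ifit3, which restrains viral RNA (1.92 ± 0.34), Zbp1, a sensor of Z-form nucleic acid (1.60 ± 0.15), and Samhd1, which breaks down deoxynucleotides (1.58 ± 0.13). From PreGr to Gr 13 rose and 5 fell (median 0.46, against 0.02 over all genes), where 8.12% of all genes rose and 11.2% fell, led by Rtp4, a chaperone of receptors that restrains viruses (2.50 ± 0.17), the antiviral enzyme Rsad2 (1.43 ± 0.23) and Ddx58, which encodes the RNA sensor RIG-I (1.30 ± 0.17). Slfn1, Slfn2 and Slfn4 rose at both steps, whereas Slfn5 and Slfn9 fell at the latter.

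From MPP4 to CMP 7 interferon response genes fell and none rose (median -0.30, against 0.02), where 1.46% of all genes fell, among them Rtp4 (-1.20 ± 0.17), Ddx58 (-0.80 ± 0.17), Oasl2, related to the oligoadenylate synthetases (-0.77 ± 0.20), and the ADP-ribosyltransferase Parp14 (-0.71 ± 0.19), and Slfn8 fell there too. Between LT-HSC and MPP2, where the median over all genes was 0.16 and that of the list -0.50, the genes Parp14 (-1.26 ± 0.39), Ddx58 (-1.20 ± 0.35) and Samhd1 (-1.07 ± 0.28) fell, 3 in all, beside Slfn5, and none rose. Of all genes 2.05% fell there. The mean level of the 29 genes was lowest in GMP, between 7.53 and 7.71 over its arrays, and between 7.84 and 7.92 in CMP, 7.86 and 7.98 in MPP2, 8.20 and 8.30 in MPP4, 8.34 and 8.44 in LT-HSC and 8.50 and 8.74 in Gr. Across the 25 stem and progenitor arrays this mean correlated with Slfn8 at r = 0.85, Slfn5 at 0.80, Slfn2 at 0.16, Slfn9 at -0.45 and Slfn3 at -0.57. Slfn5 lay below 7.05 on 13 of those arrays. Values of this size were not particular to the interferon list. On the same arrays Slfn8 correlated at -0.81 with the mean of a list of monocyte and macrophage genes. Slfn5 correlated at -0.76 with that of a list of cell division genes. Slfn1 and Slfn4 are left out, since they passed that level on none and 1 of the 25. The arrays share populations and array sets, so these are descriptions. Of the 15 interferon receptors and signal transducers, 5 rose and none fell from GMP to PreGr (of all genes, 6.63% and 8.98%), Irf2 (1.13 ± 0.14), Ifnlr1 (0.81 ± 0.15), Irf9 (0.80 ± 0.15) and the phosphatase Ptpn6 (0.77 ± 0.12) among them. From PreGr to Gr 4 rose, including Jak1 (0.92 ± 0.13), and 2 fell, Ifngr1 (-0.77 ± 0.09) and Tyk2 (-0.62 ± 0.11), against 8.12% and 11.2% of all genes.

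The genes most like each member over the 31 arrays were found by Pearson correlation. For Slfn1 they were Fgr, a Src-family kinase of myeloid cells (r = 0.994), Klra2, a Ly49-type receptor (0.993), and Cd177, a neutrophil surface protein (0.991). Slfn2 was most like Mocos, which activates molybdenum enzymes (0.982), Lyz2, myeloid lysozyme (0.977), and the coagulation factor F5 (0.969). Slfn4 was most like the complement receptor C5ar1 (0.992), the chemokine receptor Ccr1 (0.991) and the chitinase-like Chil1 (0.99). All of these stood higher in PreGr and Gr than in the earlier populations. C5ar1, for example, had a mean level of 6.26 in GMP, 9.61 in PreGr and 11.59 in Gr.

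The long members had other companions. Slfn5 was closest to the kinase Map3k8 (0.843), Gngt2 (0.828) and the MHC class II gene H2-Aa (0.788). Slfn8 was closest to Eps8, an actin regulator (0.851), Xaf1 (0.815) and Ifi203 (0.776), of which Xaf1 and Ifi203 are interferon-inducible and Xaf1 is on the interferon list. Slfn9 was closest to genes of DNA replication and repair: Brca2 (0.94), the polymerase subunit Pola1 (0.916) and Mms22l (0.905). Brca2 had a mean level of 8.85 in MPP2, 8.77 in GMP, 7.65 in PreGr and 6.70 in Gr, against 8.75, 8.46, 7.89 and 6.76 for Slfn9. Those are levels of different probes, so that only their courses can be compared. Slfn3 was closest to the kinetochore gene Nsl1 (0.805), Aarsd1, which edits mischarged transfer RNA (0.765), and Mtbp (0.764), weaker likenesses than those of the other members. Of 21 measured cell division genes, 17 fell from PreGr to Gr, where 11.2% of all genes fell, and none rose, with Cdk1, the mitotic kinase, at -1.51 ± 0.23, while limma called none from GMP to PreGr, with 2 of 21 at an unadjusted p under 0.05. The mean of that list was lowest in ST-HSC at 7.83, against 9.92 in PreGr and 8.99 in Gr. Its correlation with Slfn9 over the 31 arrays was 0.42. Slfn1 and Slfn4 correlated at 0.97, Slfn1 and Slfn2 at 0.96, and Slfn1 and Slfn9 at -0.74. Slfn5 and Slfn8 correlated at 0.53 and Slfn8 and Slfn9 at 0.05.

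**Figure D4:**
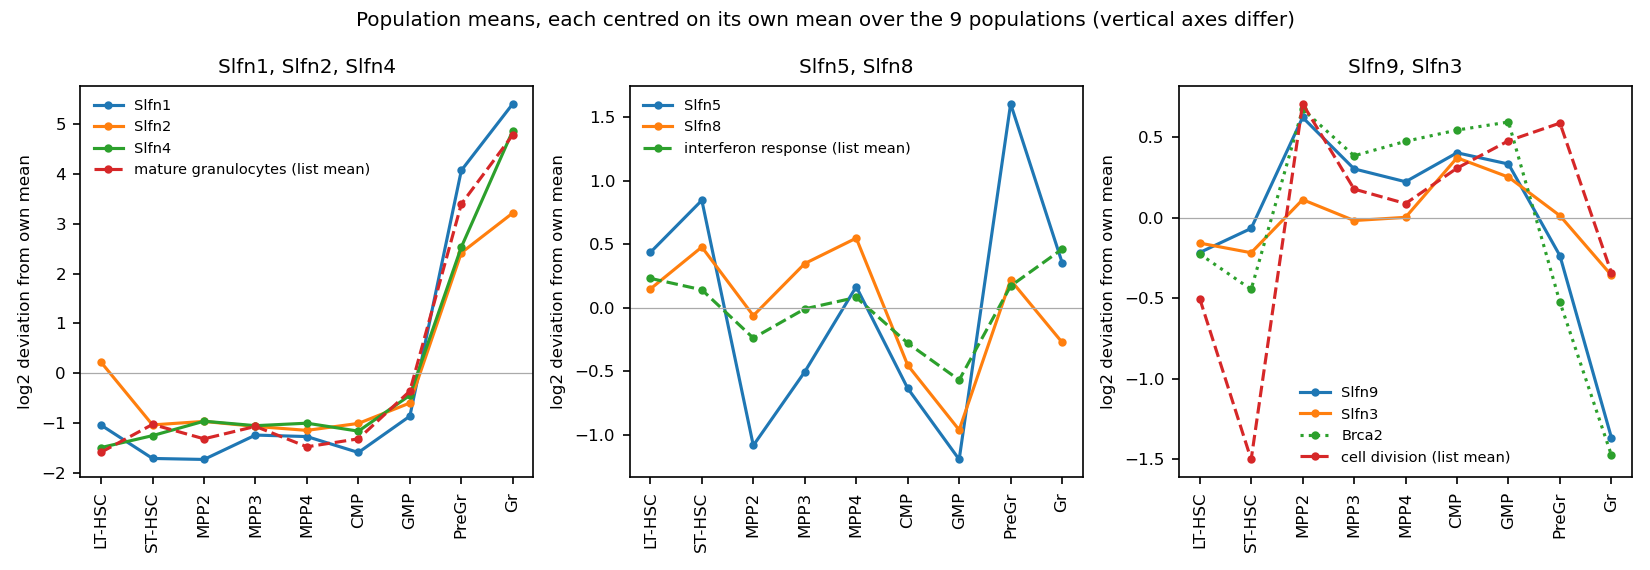
Population means of Schlafen genes, each as the log2 deviation from its own mean over the 9 populations (vertical axes, which differ), with the mean of a gene list (dashed) or of Brca2 (dotted) treated the same way. Slfn1, Slfn2 and Slfn4 are drawn with 12 genes of mature granulocytes, Slfn5 and Slfn8 with 29 interferon response genes, and Slfn9 and Slfn3 with Brca2 and 21 cell division genes. By mean, Slfn5 and Slfn8 have their lowest point in GMP, as the interferon list has, and Slfn9 and Brca2 have theirs in Gr. In Slfn5, MPP2 overlaps GMP, no difference was called, and the set-adjusted value was lower in MPP2 (-0.77). In Slfn8 the difference between GMP and CMP was not called. The cell division list is lowest in ST-HSC (7.83) and not in Gr (8.99).

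Markers of other cells moved along with the granulocytic stages. Their counts are to be read against the 6.63% of all genes that rose and the 8.98% that fell from GMP to PreGr, and the 8.12% and 11.2% from PreGr to Gr. Of 12 mature granulocyte genes, 11 rose from GMP to PreGr (median 3.56) and 7 from PreGr to Gr, and none fell. Of 12 monocyte and macrophage genes, 8 rose from GMP to PreGr and 7 fell from PreGr to Gr. Their mean level was between 8.58 and 8.69 in GMP, 9.61 and 9.90 in PreGr and 8.88 and 9.37 in Gr. Ccr2, which marks monocytes, changed by 1.72 ± 0.28 and then by -2.08 ± 0.28, a course that Slfn5 shared in direction. Of 13 T and NK cell genes, 6 rose from GMP to PreGr, and 2 rose and 4 fell from PreGr to Gr. Gzma rose by 3.75 ± 0.19 and then fell by 2.92, while Cd3d rose by 3.24 ± 0.22 and again by 2.80 ± 0.22. The mean of the list was between 6.74 and 6.90 in GMP, 7.58 and 7.62 in PreGr and 7.23 and 7.52 in Gr. Cd3e, which defines T cells, had mean levels of 7.37, 7.29 and 7.71, Cd4 of 6.79, 6.75 and 6.95 and Zap70 of 6.62, 6.56 and 6.60 in GMP, PreGr and Gr. Of 11 B and plasma cell genes, 3 rose from GMP to PreGr, with Jchain at 4.71 ± 0.84, and 4 rose from PreGr to Gr, where the list mean went from between 7.68 and 8 to between 7.82 and 8.69. Of 9 erythroid genes, Tfrc fell at the former step and Epor rose at the latter. Since Slfn1, Slfn2 and other members are also known from lymphocytes and monocytes, these values stand beside the rises in PreGr and Gr, and their part in the result was not tested.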

How the data were processed

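Gene expression was measured on 31 one-colour Affymetrix arrays, 1 per sorted sample of 9 populations, and the labels call the samples of a population biological replicates. The deposited log2 values were made by the authors with RMA, which corrects background, normalizes and summarizes probes, per the submitters' processing notes; the RMA version is not stated, and which arrays were normalized together is not given in the sources used here. The values ran from 1.39 to 14.29. Arrays that share at least 2 identical values fell into 5 sets, and arrays of different sets shared at most 1. Precision is limited by the number of arrays.

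Of 35557 probes, 21789 named 1 gene, 1621 named several and were left out, and 12147 are unnamed here. Of the 1-gene probes 21698 matched a gene of RefSeq GRCm38.p6. For 999 genes with more than 1 probe the brightest was used, which left 19938 genes. Values were quantile-normalized over all arrays and fitted in R 4.3.3 with limma 3.58.1, with 1 mean per population plus a term for the array set, which left 18 residual degrees of freedom, and again without that term (22). P-values were adjusted by Benjamini-Hochberg over all genes, and a change was called at an adjusted p under 0.05 in both fits and in 1 direction. All 36 pairs of populations were fitted, of which 11 were taken as the main comparisons. The members and the gene lists were chosen with earlier results of these data known. Genes were named by rule: the members, other Schlafen genes, the 5 protein-coding genes on each side of the cluster, the 3 genes most like each member outside the family (uninformative symbols passed over), and at most 4 called genes per list and comparison, the largest first. Beyond the rule, Ccr2, Cd3e, Cd4 and Zap70 were given for the other cell types. Of the lists, 10 genes were not measured. Promoter sequences are the 250 bases before the transcript start that the RefSeq promoter table takes, aligned with Biopython 1.88. For Slfn5 and Slfn4 that start lies inside the gene's outermost bounds, and the first of 2 windows was used for Slfn8. Same-numbered samples deviated together in MPP4 against LT-HSC alone (correlations of 0.126 to 0.271 over 4 pairs). With the array set fitted, these correlations were -0.0292 to 0.0603. The sample titles number the replicates and do not say that equal numbers mark pairs.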

Additional observations from a re-analysis of the deposited data

Results flagged for a closer look

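Among 21 groups of a member in a population with 4 or more samples, 2 held an array that stood far from the others, where chance gives about 5% of such groups. In LT-HSC, Slfn2 was 7.61 on LT-HSC 4, against 8.72 for the nearest of the other 3 arrays, a gap of 0.96 of the whole range. LT-HSC 4 lies in another array set than LT-HSC 1 to 3, and the part of the set in this gap was not tested. In GMP, Slfn5 was 5.67 on GMP 3, against 6.21 for the nearest of the others, a gap of 0.847 of the range. Without GMP 3 the rise of Slfn5 from GMP to PreGr remained called (adjusted p = 4.64e-07, limma).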

How the results depend on the processing

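All 5 calls from GMP to PreGr and all 7 from GMP to Gr kept direction and side of the threshold under each of the 44 alternatives run, as did those of Slfn1, Slfn4, Slfn5 and Slfn9 from PreGr to Gr. Slfn2 at that step missed the threshold in 1, the deposited values without the set (a change of 0.69).

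Counts of members in the rest of this section are of calls in 1 fit, with the set-adjusted fit as the base, and not of calls in both fits, which are 1 for CMP minus MPP4 and 5 for Gr minus PreGr. The number of members called among stem cells and progenitors moved with the array set. For ST-HSC minus LT-HSC it was 0 with the set as a block, 2 after quantile normalization without it, 6 on deposited values without it, 1 with the set as a random block (correlation 0.559), 3 with a replicate block and no set, and 1 with array weights. Calls over all 19938 genes moved as well, and the member counts are to be read against them. In that order 183, 1704, 18417, 83, 2609 and 630 genes were called higher, and 110, 2838, 14, 114, 3783 and 372 lower. In the same order without array weights, MPP3 minus LT-HSC gave 0, 2, 5, 1 and 3, and MPP4 minus LT-HSC gave 0, 3, 5, 1 and 1. Over all genes MPP3 gave 864, 2544, 15661, 953 and 3703 higher and 462, 2943, 113, 832 and 3938 lower. MPP4 gave 278, 2457, 11569, 422 and 2657 higher and 269, 2475, 395, 531 and 2631 lower. MPP2 minus LT-HSC gave 2, but 1 under cyclic loess and 5 under each of the quantile-normalized fit, the deposited values and the replicate block, all without the set. In that order 1068, 118, 3441, 17713 and 4342 of all genes were called higher and 559, 188, 3756, 76 and 4395 lower. MPP2 minus MPP3 gave 1, and 0 under deposited values with or without the set, median centring, cyclic loess, quantile normalization without the set, the random block, the replicate block with or without the set, and array weights. MPP2 minus MPP4 gave 1, and 2, 4, 2 and 2 under quantile normalization, deposited values, random block and replicate block without the set. Of all genes 200, 1352, 16749, 93 and 1943 were called higher there and 222, 1591, 66, 274 and 2151 lower. MPP3 minus MPP4 gave 1, 2 on deposited values without the set, and 0 on deposited values with it, cyclic loess, quantile normalization, the random block and the replicate block without the set. On deposited values without the set 10721 genes were called higher and 10 lower there, against 133 and 99 with the set-adjusted fit. CMP minus MPP4 gave 2, and 1 by quantile normalization and 0 on deposited values without the set, where 879, 640 and 266 of all genes were called higher and 562, 376 and 77 lower. GMP minus CMP gave 0, and 3, 3 and 2 by quantile normalization, deposited values and the replicate block without the set. In that order 126, 1084, 1268 and 1236 of all genes were called higher and 138, 1239, 266 and 1385 lower. The cause was not tested.

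In the set-adjusted fit, leaving out 1 array gave 0 to 0 members for ST-HSC, MPP3 and MPP4 against LT-HSC and for GMP minus CMP, 1 to 2 for MPP2 minus LT-HSC and MPP2 minus MPP4, 0 to 1 for MPP2 minus MPP3 and MPP3 minus MPP4, 1 to 3 for CMP minus MPP4, 5 to 6 for PreGr minus GMP, 6 to 7 for Gr minus PreGr and 7 to 7 for Gr minus GMP. Of 75 calls made in both fits over all pairs of populations, 10 were lost without at least 1 array. Calls that rest on LT-HSC 4, MPP3 3 or GMP 4 could not be refitted without that array.

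Directions that turned were those of Slfn1 in ST-HSC minus LT-HSC (0.54; -0.67 by quantile normalization, -0.056 with the random block, -0.59 with the replicate block and no set), Slfn1 in MPP2 minus LT-HSC (0.52; -0.69, -0.080 and -0.61 likewise), Slfn9 in MPP2 minus LT-HSC (-0.58; 0.84, 0.18 and 0.94 likewise, and 2.02 on deposited values) and Slfn1 in GMP minus CMP (-0.16; 0.73, 0.20 and 0.66 likewise, and 0.98 on deposited values). On deposited values without the set Slfn8 also turned to 0.86 in MPP2 minus LT-HSC, 0.19 in MPP2 minus MPP4 and 0.29 in MPP3 minus MPP4, and Slfn5 to 0.13 in MPP3 minus LT-HSC. That setting moves the median of all genes by 1.35 in MPP2 minus LT-HSC.

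For MPP4 minus LT-HSC, where same-numbered samples deviated together only before the set was fitted, the replicate block beside the set left the count at 0. The replicate block beside the set could not be estimated for 5 comparisons, nor LT-HSC contrasts without LT-HSC 4. The array sets and the call in both fits were chosen after seeing the data.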
